A study of Homo sapiens with 3 samples.

Results

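The 39 protein-coding HOX genes of the HOXA, HOXB, HOXC and HOXD clusters were taken by name from a table of 60504 genes. The rule used no measured value, though it was set with earlier results of these data known. HOXA holds 11 of them on chromosome 7, HOXB 10 on chromosome 17, HOXC 9 on chromosome 12 and HOXD 9 on chromosome 2. The study knocked out BEX2 in DLD1 cells, an established human colorectal cancer line, by CRISPR/Cas9 editing. Total RNA of the cells was the input to its sequencing libraries, and the paper does not say which RNA was selected from it. One library was labelled wild type and is called the control, and 2 were labelled BEX2 knocked out (KO1 and KO2) and are called clone 1 and clone 2. No other allele and no treatment is labelled for any of the 3 libraries. The sources do not say whether KO1 and KO2 were separate clones or separate cultures, nor whether the control cells had been through cloning. With 1 control library, the genotype cannot be told apart from the difference between any pair of cultures, and in bulk RNA fewer cells of a type cannot be told apart from less RNA per cell.

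The values are FPKM, read counts divided by exon length and by library depth, so that levels of different genes are compared per length. The depths recovered from the values were 47458851, 35593989 and 47722374 reads in the control, clone 1 and clone 2. BEX2 was listed at 0 in all 3 libraries, the control included, where 3 reads would have been 0.0538 FPKM, so its RNA level does not check the labels. The paper picked DLD1 because its BEX2 protein was relatively high among colorectal lines, and it checked the knockout by western blot. Why the RNA value of the control is 0 was not tested. Of 9 colon epithelium markers, 8 reached 1 FPKM in some library, and they summed to 1637, 1697 and 1885 FPKM. VIL1, which encodes the brush border protein villin, stood at 3.61, 13.2 and 0.221 FPKM, more than 2-fold higher in clone 1 and lower in clone 2 than in the control. No marker of fibroblasts, immune cells or endothelium reached 1 FPKM, with sums of 0.129 to 0.634, 0.770 to 1.10 and 0.0649 to 0.0784 FPKM.

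HOX genes encode homeodomain transcription factors that lay out the body from head to tail in the embryo. Within a cluster the genes stand in the order of their paralogue numbers, 1 to 13, and genes with low numbers are active nearer the head and those with high numbers nearer the tail. Adult gut epithelium keeps a HOX pattern that marks its position, and the intestinal factor CDX2, retinoic acid and the opposed trithorax and Polycomb chromatin complexes are known regulators of HOX transcription.

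DLD1 cells held their HOX RNA in the HOXA and HOXB clusters. Of the 39 genes, 20 reached 1 FPKM in at least 1 library, against 53.1% of 19664 protein-coding genes. These were 10 of the 11 HOXA genes, 9 of the 10 HOXB genes, none of the 9 HOXC genes and HOXD9 alone of the HOXD genes. The HOXB genes summed to 226, 213 and 208 FPKM in the control, clone 1 and clone 2, which was 75.1, 74.9 and 77.9% of all HOX FPKM. The HOXA genes summed to 71.6, 68.8 and 56.5 FPKM, or 23.8, 24.2 and 21.2%. The HOXC sums were 1.501, 1.2204 and 0.918 FPKM, and the HOXD sums were 1.98, 1.16 and 1.53 FPKM. The order HOXB, HOXA, HOXD, HOXC held in the control and in clone 2, and in clone 1 HOXC and HOXD changed places at nearly equal sums.

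**Figure D1:**
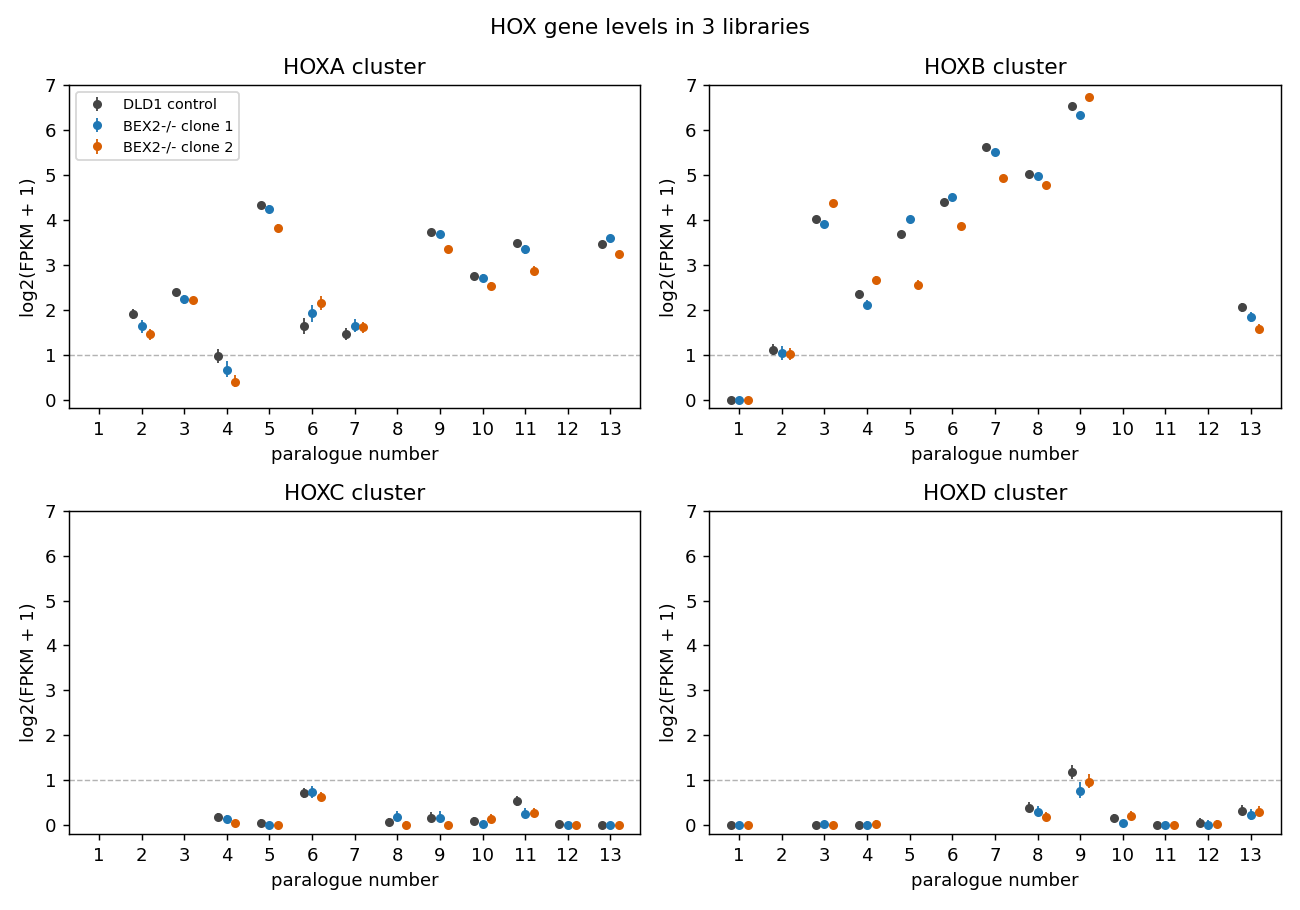
Level of each HOX gene, as log2(FPKM + 1), in paralogue order within each of the 4 clusters, with 1 point per library (control, clone 1, clone 2), 95% counting intervals as bars and a dashed line at 1 FPKM. The HOXB panel peaks at HOXB9, at 91.1, 79.9 and 105 FPKM, while no HOXC gene reached 1 FPKM in any library.

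By paralogue number, group 9 was the highest in each library. It summed to 105, 92.5 and 115 FPKM, which was 34.7, 32.6 and 43.2% of the HOX total. Group 7 followed with 50.1, 46.4 and 31.6 FPKM. Groups 8, 5, 6 and 3 lay between 17.6 and 33.2 FPKM in all libraries. At the tail end of the clusters, group 13 summed to 13.5, 13.9 and 10.7 FPKM and group 12, which has members only in HOXC and HOXD, to 0.0439, 0 and 0.0156 FPKM.

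Of the 39 members, 10 reached 10 FPKM in at least 1 library. HOXB9 (chr17:48621159-48626356, minus strand, GRCh38), which patterns the thoracic region and the mammary gland, was the highest HOX gene in each library, at 91.1 FPKM in the control, 79.9 in clone 1 and 105 in clone 2. It ranked 311, 345 and 253 among the 19664 protein-coding genes and made up 30.2, 28.1 and 39.4% of the HOX total. HOXB7, another trunk gene, stood at 48.4, 44.3 and 29.5 FPKM. HOXB8, which keeps myeloid progenitors growing when it is overexpressed, stood at 31.4, 30.6 and 26.5 FPKM. HOXB9, HOXB7 and HOXB8 were ranked 1, 2 and 3 of the HOX genes in all 3 libraries, with no overlap of their 95% counting intervals within a library. These intervals leave out any error in the exon lengths that FPKM divides by, and the order of genes rests on those lengths too. HOXB3, with 7456 exon bases, had 5358, 3729 and 7050 reads. HOXB7, with 1528 exon bases, had fewer reads, at 3509, 2409 and 2153, but a higher FPKM.

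Next came HOXB6 at 20.03, 21.8 and 13.6 FPKM, and HOXA5, which is needed for maturation of the lung and gut, at 19.1, 18.0 and 13.1 FPKM. The counting intervals of HOXB6 and HOXA5 overlapped in the control (19.2 to 20.8 and 18.2 to 20.1 FPKM) and in clone 2, and not in clone 1. HOXB3, a gene of the hindbrain and neck, stood at 15.1, 14.1 and 19.8 FPKM. Their order therefore differed between libraries, with HOXB3 at rank 6, 7 and 4. HOXA9, a regulator of blood stem cells and a leukaemia gene, stood at 12.2, 11.8 and 9.15 FPKM. HOXB5 stood at 11.8, 15.2 and 4.89 FPKM and moved the most in rank of these 10, to 8, 6 and 11. HOXA11 and HOXA13 were close in the control, at 10.2 (9.59 to 10.8) and 10.1 (9.68 to 10.5) FPKM, and lay apart in clone 1, at 9.12 and 11.2, and in clone 2, at 6.31 and 8.43 FPKM. HOXA11 acts in the uterus and forearm, and HOXA13 in the hindgut and the tips of the limbs.

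The counting intervals come from whole reads. A value multiplied by the exon length of the gene and by the depth of its library came within 0.02 of a whole number for all 39 members in each library. These intervals, and those of the ratios given next, are exact 95% intervals that cover counting error only, since no molecular identifiers were used, and they say nothing of the spread between cultures. The members past the filter had a median of 856 reads, against 1237 for all genes past it.

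Clone 1 against the control asks whether HOX levels differed in one of the knockout libraries. A gene was called at a change of 2-fold or more in FPKM + 1, among genes whose control value and clone mean averaged 1 FPKM or more. Of the 39 members, 20 passed this filter, HOXD9 among them only through its value in the control. None of the 20 was called in clone 1, where 2.02% of the 11675 genes tested were. The median difference on the log2(FPKM + 1) scale was -0.05 over the 39 members, with 8 above 0, 26 below and 5 at 0. Over the 20 members past the filter it was -0.09, with 15 below 0. Over all 11675 genes past the filter it was 0.04, with 5109 below 0.

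Clone 2 against the control gave 1 call among the same 20 members, HOXB5, where 2.06% of all genes tested were called. The median difference was -0.07 over the 39 members, with 9 above 0, 25 below and 5 at 0. Over the 20 members past the filter it was -0.22, with 14 below 0. Over all 11675 genes past the filter it was -0.01, with 6021 below 0. No member was called the same way in both clones, where 0.325% of all genes were. A limma fit of both clones against the control, which lets the lone control vary as the clones do, gave 0 genes at an adjusted p under 0.05 (0% of 11675) and 139 at an unadjusted p under 0.05 (1.19%). No member was among these 139. The members' log2 differences in that fit ran from -0.41 for HOXB7 to 0.39 for HOXA6, with standard errors of 0.19 to 0.69. These p-values measure only the spread between these samples, which may be technical.

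**Figure D2:**
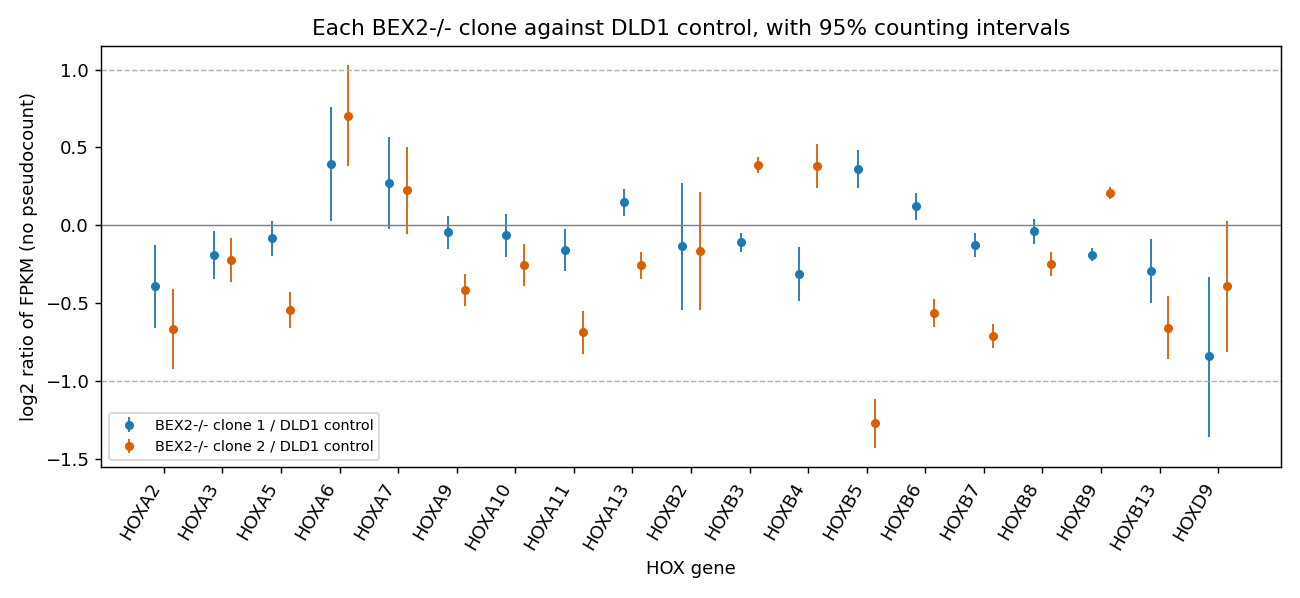
Ratio of each clone to the control, on the log2 scale of FPKM, for the named HOX genes at 1 FPKM or more in any library, with 95% counting intervals as bars and dashed lines at 2-fold. The ratio of HOXB5 differs most between the clones, at 1.28 in clone 1 and 0.414 in clone 2, and HOXB3, HOXB4 and HOXB9 lie below the control in clone 1 and above it in clone 2.

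HOXB5 (chr17:48591257-48593961, minus strand) helps form the enteric nervous system of the gut. Its 11.8, 15.2 and 4.89 FPKM came from 1143, 1101 and 476 reads. The ratio to the control was 1.28 (1.18 to 1.40) for clone 1 and 0.414 (0.371 to 0.461) for clone 2, so the control lay between the clones. The clones' mean was 10.02 ± 7.26 FPKM (SD, n = 2), and the limma difference was -0.39 with a standard error of 0.69 (adjusted p = 1.00). The spread between the clones was thus larger than their mean distance from the control.

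HOXB6, the neighbour of HOXB5, ran the same way at 2475, 2019 and 1687 reads, with ratios of 1.09 (1.03 to 1.15) in clone 1 and 0.678 (0.637 to 0.721) in clone 2. HOXA13 did so too, at 1.11 (1.04 to 1.18) and 0.836 (0.788 to 0.887). These 3 genes, of 35 members with any read, had an interval above 1 in clone 1 and below 1 in clone 2, a pattern that 4.39% of 25577 genes had.

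The opposite pattern, an interval below 1 in clone 1 and above 1 in clone 2, was seen for 4 members, against 3.48% of all genes. HOXB3, HOXB4 and HOXB9 were among them. HOXB9 had 11158, 7337 and 12954 reads and ratios of 0.877 (0.851 to 0.903) and 1.15 (1.13 to 1.18). HOXB3 had ratios of 0.928 (0.890 to 0.968) and 1.31 (1.26 to 1.36). HOXB4, known for its ability to expand blood stem cells, stood at 4.12, 3.32 and 5.35 FPKM, with ratios of 0.807 (0.715 to 0.909) and 1.30 (1.18 to 1.43). So 7 of the 35 members had intervals that lay wholly on opposite sides of 1 in the clones, all 7 among the 20 past the filter. Narrow intervals leave out 1 more often, and of the 10514 genes past the filter with whole reads 9.35% had the first of these patterns and 7.0% the second.

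Intervals below 1 in both clones were found for 7 members, against 7.52% of all genes. In TPM only 4 of them kept the pattern, HOXA2, HOXA4, HOXB13 and HOXC11, and it was lost for HOXA3, HOXA11 and HOXB7. HOXB7 had ratios of 0.915 (0.869 to 0.964) and 0.610 (0.578 to 0.644). HOXA11 had 0.896 (0.816 to 0.984) and 0.620 (0.564 to 0.683). HOXB13, a partner of the androgen receptor in the prostate, stood at 3.14, 2.56 and 1.99 FPKM, with ratios of 0.817 (0.708 to 0.941) and 0.634 (0.550 to 0.730). Of the 7, 5 were past the filter, where 14.2% of all genes had this pattern. In HOXB7, HOXA11 and HOXB13 the control was the highest library and clone 2 the lowest.

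HOXA2, which patterns the middle ear and hindbrain, stood at 2.74, 2.09 and 1.73 FPKM, with ratios of 0.763 (0.632 to 0.917) and 0.631 (0.526 to 0.755). HOXA3, needed for the thymus and parathyroid, stood at 4.22, 3.69 and 3.62 FPKM, with ratios of 0.875 (0.786 to 0.975) and 0.857 (0.776 to 0.947). HOXA4, at 0.953, 0.579 and 0.312 FPKM, and HOXC11, at 0.452, 0.198 and 0.212 FPKM, were the members of this group under 1 FPKM. HOXA4 had ratios of 0.608 (0.398 to 0.912) and 0.327 (0.202 to 0.516) from 79, 36 and 26 reads. It shares 47.3% of its exon bases with other genes, and HOXA11 shares 31.1% with HOXA11-AS on the other strand. The part of this in their values was not tested. HOXC11 had 0.438 (0.261 to 0.710) and 0.469 (0.3001 to 0.719) from 70, 23 and 33 reads.

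HOXA6 was the member with an interval above 1 in both clones, against 8.72% of all genes and 17.4% of those past the filter. It stood at 2.12, 2.78 and 3.44 FPKM, with ratios of 1.31 (1.02 to 1.69) and 1.63 (1.30 to 2.04). With each library scaled by its median ratio to the others, both ratios of HOXA6 stayed above 1, at 0.34 and 0.71 on the log2 scale, but its interval in clone 1 then held 1, so that no member had intervals above 1 in both clones. Under that scaling 9 members had intervals below 1 in both, the same 7 with HOXA5 and HOXB8. The share of all genes with these interval patterns was not counted under that scaling or in TPM. HOXA7 stood at 1.76, 2.12 and 2.05 FPKM, with ratios of 1.21 (0.982 to 1.48) and 1.17 (0.963 to 1.42). Of the exon bases of HOXA6 and HOXA7, 40.1 and 62.5% are shared with other genes, mostly HOXA-AS3 on the other strand. HOXA-AS3 itself stood at 0.636, 0.763 and 0.881 FPKM. Whether the counting used strand is not given in the sources used here, and the part of that overlap in these values was not tested.

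The other HOXA and HOXB members past the filter were near the control in clone 1 and mostly lower in clone 2. HOXA5 had ratios of 0.943 (0.872 to 1.02) and 0.686 (0.634 to 0.742). HOXA9 had 0.969 (0.901 to 1.04) and 0.749 (0.697 to 0.805), and HOXB8 0.973 (0.921 to 1.03) and 0.842 (0.799 to 0.888). In TPM the clone 1 values of HOXA9 and HOXB8 lay above the control. HOXA10, which acts in the uterus, stood at 5.72, 5.47 and 4.80 FPKM, with ratios of 0.956 (0.868 to 1.05) and 0.838 (0.764 to 0.920). HOXB2, a gene of the hindbrain, stood at 1.15, 1.05 and 1.02 FPKM, and both of its intervals held 1 (0.687 to 1.21 and 0.687 to 1.16). HOXA9 shares 27.04% and HOXA10 26.3% of their exon bases with other genes, HOXA10-AS among them.

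The comparison of clone 2 with clone 1 asks how far apart the knockout libraries lay from each other. HOXB5 was again the 1 member called of 20, where 4.19% of all genes were. It was 0.322-fold in clone 2 (0.289 to 0.359). The median difference over the 39 members was -0.02, with 12 above 0, 21 below and 6 at 0. It was -0.17 over the 20 members past the filter, with 14 below 0. Over all 11675 genes past the filter it was -0.05, with 6747 below 0. Along HOXB the ratio was above 1 for HOXB3 (1.41, 1.36 to 1.47) and HOXB4 (1.61, 1.44 to 1.81). It was below 1 for the next 4 genes, HOXB5, HOXB6 (0.623, 0.584 to 0.665), HOXB7 (0.667, 0.629 to 0.707) and HOXB8 (0.866, 0.818 to 0.917). It was above 1 again at HOXB9 (1.32, 1.28 to 1.36) and below 1 at HOXB13 (0.777, 0.663 to 0.909). In HOXA, HOXA5 (0.727, 0.668 to 0.792), HOXA9 (0.773, 0.715 to 0.835), HOXA11 (0.692, 0.623 to 0.768) and HOXA13 (0.755, 0.710 to 0.803) were below 1, as was HOXA10 (0.877, 0.793 to 0.970). HOXA6 stood at 1.24, with an interval that held 1 (0.990 to 1.56), as did the intervals of HOXA2, HOXA3 and HOXA7. Neighbours in these runs share exons in part: HOXB3 shares 433 exon bases with HOXB6 and a further stretch with HOXB4, and the part of this in their values was not tested.

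**Figure D3:**
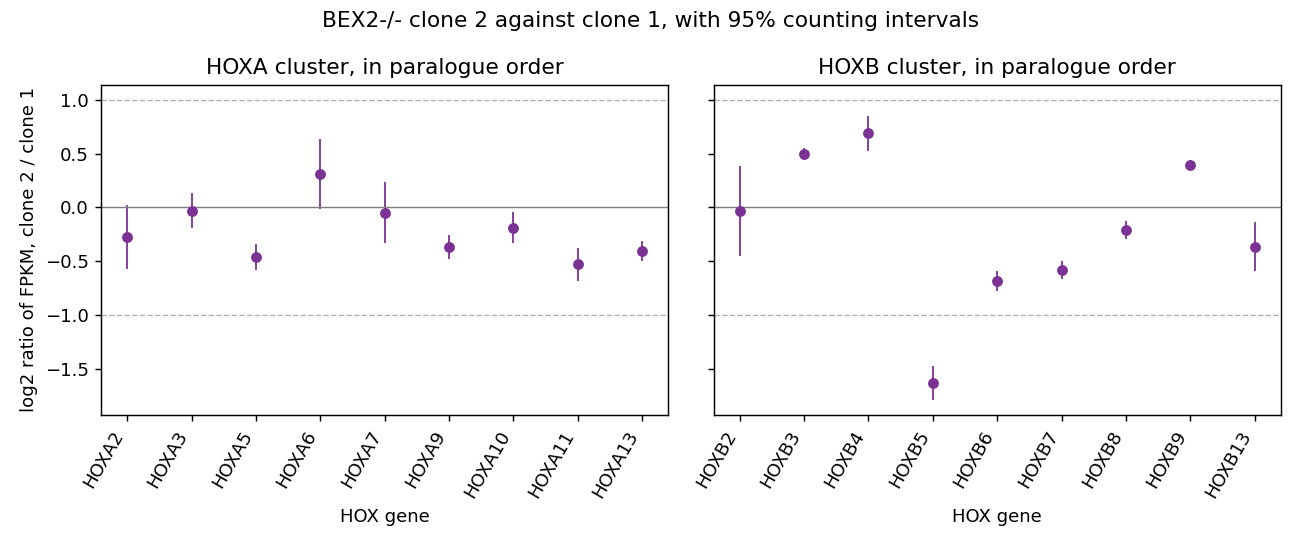
Ratio of clone 2 to clone 1, on the log2 scale of FPKM, for the named HOXA and HOXB genes past the filter in paralogue order, with 95% counting intervals and dashed lines at 2-fold. HOXB5 is the gene past 2-fold, at 0.322-fold, between HOXB4 at 1.61-fold and HOXB6 at 0.623-fold.

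By cluster, the HOXA sum differed from that of the control by a log2 ratio of -0.06 (clone 1) and -0.34 (clone 2), a mean of -0.20 ± 0.20 (SD, n = 2). The HOXB sum was at -0.09 and -0.12, a mean of -0.11 ± 0.023. The HOXC sum was at -0.30 and -0.71 and the HOXD sum at -0.77 and -0.37, from 220, 133 and 144 HOXC reads and 195, 88 and 151 HOXD reads. The HOXB sum thus changed little, while single genes in it moved up and down by more.

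The 19 members not past the filter were HOXA4, HOXB1, all 9 HOXC genes and 8 of the 9 HOXD genes. Of these, 15 were under 1 FPKM but not at 0 in all libraries, and 4 had no read in any: HOXB1, HOXC13, HOXD1 and HOXD11. A count of 0 allows up to 3 reads, which for HOXB1 is 0.0255 FPKM in the control and for HOXD1 is 0.0427 FPKM in clone 1. The highest HOXC gene was HOXC6, at 0.637, 0.667 and 0.556 FPKM from 107, 84 and 94 reads. HOXD9 stood at 1.26, 0.706 and 0.964 FPKM from 112, 47 and 86 reads, with ratios of 0.560 (0.389 to 0.793) in clone 1 and 0.764 (0.570 to 1.02) in clone 2.

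HOXD8, HOXC4, HOXC9 and HOXD10, all low, also had an interval that left out 1 in a clone. HOXD8 had 39, 22 and 18 reads and was 0.459-fold in clone 2 (0.247 to 0.822). HOXC4 had 17, 9 and 4 reads and was 0.234-fold in clone 2 (0.0573 to 0.717). HOXC9 had 10 and 7 reads in the control and clone 1 and none in clone 2, where its ratio was at most 0.444. HOXD10 had 15, 3 and 20 reads, 0.267-fold in clone 1 (0.0495 to 0.943), and 4.97-fold (1.47 to 26.1) in clone 2 against clone 1. HOXC4 shares 17.8% of its exon bases with HOXC6 and HOXC5. HOXD13 had 27, 13 and 25 reads and HOXC10 had 7, 1 and 12, and the others with reads, HOXC5, HOXC8, HOXC12, HOXD3, HOXD4 and HOXD12, had 0 to 9.

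The clusters also hold microRNA genes whose products bind HOX transcripts, so the mature sequences (RefSeq, GRCh38.p14) are shown, 5′ to 3′, with the seed, bases 2 to 8, in capitals. miR-196a-5p is made from MIR196A1 in HOXB (chr17:48632532-48632553, minus strand) and MIR196A2 in HOXC, miR-196b-5p from MIR196B in HOXA (chr7:27169528-27169549, minus strand) and miR-10a-5p from MIR10A in HOXB (chr17:48579904-48579926, minus strand). The miR-196 pair shares 1 seed and differs at 1 base outside it.
miR-196a-5p: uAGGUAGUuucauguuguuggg
miR-196b-5p: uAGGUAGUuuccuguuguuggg
miR-10a-5p: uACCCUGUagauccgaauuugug

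Mature microRNAs were not measured in these libraries. The hairpin gene MIR196A1 was listed at 16.0, 26.1 and 16.5 FPKM from 53, 65 and 55 reads, a high FPKM for few reads because the gene is short. It lies at chr17:48632490-48632559, inside the span of HOXB7, and the part of other RNA of that span in its reads was not tested. MIR196A2 had no read in any library. The letters ACTACCT, which pair with the whole miR-196 seed, were in the 3′UTR of 8 of the 39 HOX genes (20.5%) and in 6.17% of 18354 genes, read on the transcript strand, 1 transcript per gene. The median 3′UTR length was 856 bases for HOX and 832 for all. The 8 genes were HOXA5, HOXA7, HOXA9, HOXB1, HOXB6, HOXB7, HOXB13 and HOXC8. ACAGGGT, the match to the miR-10a seed, was in 3 of the 39 (7.69%), HOXA3 and HOXB3 among them, and in 10.8% of all genes. A match describes letters and is no measured binding.

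The windows shown are HOXB8, the gene with the longest pairing to miR-196a of the 18354, and a seed match in each of HOXB7, HOXA7 and HOXB3, whose levels are given above. They are from GENCODE 29 transcripts, 5′ to 3′ as DNA letters, with the bases opposite the seed in capitals. The HOXB8 window (chr17:48612770-48612791, minus strand) pairs with miR-196a at 21 of 22 bases, and at 6 of 7 seed bases with 1 G-U pair in the remaining place. The HOXB7 window (chr17:48607614-48607635, minus strand) pairs at 13 bases and the HOXA7 window (chr7:27154430-27154451, minus strand) at 15, each with all 7 of the seed. The HOXB3 window facing miR-10a is chr17:48549467-48549489, minus strand.
HOXB8: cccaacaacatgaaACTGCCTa
HOXB7: aacactgaaaaaatACTACCTa
HOXA7: cctactcccctaaaACTACCTa
HOXB3: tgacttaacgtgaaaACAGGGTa

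Of the non-coding genes inside the clusters, 23 of 27 listed were in the table, and 8 passed the filter. None was called in either clone against the control. HOXB-AS3, which is transcribed against the HOXB5 and HOXB6 region, was called higher in clone 2 than in clone 1. It stood at 38.3, 23.2 and 60.3 FPKM from 3475, 1578 and 5509 reads, with ratios of 0.605 (0.570 to 0.643) in clone 1 and 1.58 (1.51 to 1.65) in clone 2, and 2.60 (2.46 to 2.76) between the clones. HOXB5 and HOXB6 were highest in clone 1 and lowest in clone 2, and HOXB-AS3 was the reverse. HOXB-AS3 shares 73 exon bases with HOXB5, 3.58% of that gene's exons, and 425 with HOXB6. It also shares some with HOXB3, which did not run opposite to it. At 15.1, 14.1 and 19.8 FPKM, HOXB3 was lowest in clone 1 and highest in clone 2, as HOXB-AS3 was. Among the other 7, MIR196A1, at the levels given above, and HOXB-AS4, at 9.45, 11.0 and 10.3 FPKM, were the highest after HOXB-AS3 by the mean over the libraries.

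HOXB-AS2 stood at 0.923, 2.03 and 2.06 FPKM from 37, 61 and 83 reads. Its ratios of FPKM were 2.198 (1.44 to 3.40) in clone 1 and 2.23 (1.497 to 3.38) in clone 2, and its differences of 0.66 and 0.67 on the log2(FPKM + 1) scale, where 1 FPKM is added to low values, were under the call. HOTTIP, a non-coding RNA at the tail end of HOXA, stood at 9.59, 9.91 and 8.98 FPKM. HOTAIRM1, at the head end of HOXA, stood at 3.34, 2.61 and 3.85 FPKM. HOTAIR in HOXC stood at 0.267, 0.453 and 0.169 FPKM.

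**Figure D4:**
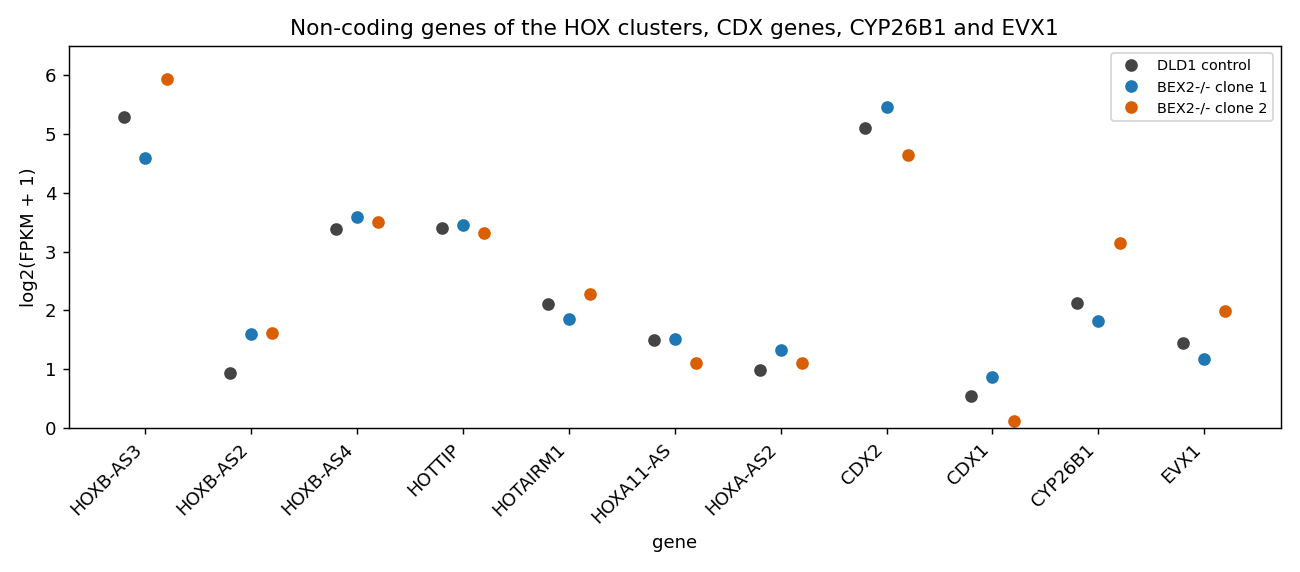
Level, as log2(FPKM + 1), of non-coding genes of the HOX clusters and of CDX2, CDX1, CYP26B1 and EVX1, with 1 point per library (control, clone 1, clone 2). HOXB-AS3, HOTAIRM1, CYP26B1 and EVX1 are lowest in clone 1 and highest in clone 2, and CDX2, CDX1, HOTTIP and HOXA11-AS are the reverse.

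Of 11 listed upstream regulators, 5 passed the filter and 1 was called. CYP26B1, which breaks down retinoic acid, was called higher in clone 2 against both other libraries, at 3.38, 2.53 and 7.85 FPKM (log2(FPKM + 1) differences of 1.02 against the control and 1.33 against clone 1). CDX2, which sets intestinal identity, stood at 33.3, 43.2 and 24.0 FPKM, with ratios of 1.30 (1.25 to 1.34) in clone 1 and 0.720 (0.694 to 0.748) in clone 2. CDX1 stood at 0.455, 0.815 and 0.0834 FPKM. The control lay between the clones for CDX2 and CDX1, in the order of libraries seen for HOXB5, HOXB6 and HOXA13, and for VIL1. Of the 9 colon epithelium markers, CLDN7 and EPCAM had this order too, KRT8 and KRT18 were lowest in clone 1 and highest in clone 2, and KRT19 and CDH1 were higher in both clones than in the control. The part of these differences in the HOX values was not tested. RARG, a retinoic acid receptor, stood at 11.3, 9.93 and 12.6 FPKM.

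Of 9 cofactor genes, which encode the TALE proteins that bind DNA with HOX factors, 3 passed the filter and none was called. They were PBX2 at 9.07, 10.2 and 9.65, PKNOX1 at 5.90, 6.496 and 6.98 and PBX4 at 2.44, 2.99 and 2.90 FPKM. All 13 trithorax genes passed and none was called in any comparison. The highest by the mean over the libraries were WDR5 at 33.8, 29.3 and 29.9, DPY30 at 28.9, 28.3 and 23.6 and MEN1 at 26.2, 22.8 and 24.1 FPKM. All 23 Polycomb genes passed and none was called. The highest by that mean were RING1 at 30.1, 27.3 and 29.9, RBBP7 at 26.7, 27.3 and 23.7 and PHC2 at 23.0, 16.0 and 28.7 FPKM. The median differences from the control in clone 1 and clone 2 were 0.07 and 0.12 for the trithorax genes and 0.03 and -0.03 for the Polycomb genes on the log2(FPKM + 1) scale, against 0.04 and -0.01 over all genes past the filter.

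Of 11 genes flanking the clusters, 8 passed the filter and none was called. MTX2, beside HOXD, stood at 23.7, 26.4 and 21.9 FPKM, in a cluster neighbourhood where the highest HOX value was 1.26 FPKM, that of HOXD9 in the control. HIBADH, beside HOXA, stood at 21.3, 19.8 and 19.9 FPKM, and SKAP1, beside HOXB, at 6.02, 4.23 and 5.62 FPKM. EVX1, a homeobox gene next to HOXA13, stood at 1.73, 1.27 and 2.96 FPKM, lowest in clone 1, where HOXA13 was highest.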

How the data were processed

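Total RNA of DLD1 cells was made into Illumina TruSeq libraries, 1 of control and 2 of BEX2-knockout cells. The deposited table holds FPKM per gene and library, made by the authors and not pooled. The submitters' processing notes name Trim Galore 0.3.7, STAR 2.5, Cufflinks 2.2.1, DESeq 1.22.1 and hg19, without saying which made the table. The gene annotation is not given in the sources used here.

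Of 60504 gene IDs, 56996 were in GENCODE 29 (GRCh38), whose merged exon lengths turned the FPKM values into whole reads within 0.02 (98.7 to 98.9% of the low values among single-transcript genes). Coordinates are from that annotation and were not converted to hg19. Differences are in log2(FPKM + 1), called at 2-fold after a filter on a mean of 1 FPKM. Ratios are of FPKM, with exact 95% intervals from the reads. Since the control is 1 library, no test was planned. The limma 3.58.1 fit (trend, R 4.3.3) was added after the data were seen. Python 3.11.15, pandas 2.3.3 and scipy 1.17.1 did the rest, and the steps were tested on simulated data. The members and the lists of regulators and neighbours were chosen with earlier results of these data known. The values of 1 member are not reported here, in the text or in the plots, though it is in the counts and sums. Every other member at 1 FPKM or more in any library is named, as are lower ones whose ratio interval left out 1, and from each list the 3 highest genes, with every gene called. Others were named after their values were seen. Alternatives tried were other pseudocounts, scalings, filters and fold thresholds, and leaving out each clone.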

Additional observations from a re-analysis of the deposited data

How the results depend on the processing

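HOXB5 stayed called in clone 2 under each pseudocount, scaling, filter and threshold tried, and no member was called in clone 1 under any. In clone 2 against the control the calls rose from 1 to 2 in TPM (with HOXA4) and to 3 at a 1.5-fold threshold (with HOXA11 and HOXB7). The share called of all genes tested rose too, from 2.06% to 6.88% in TPM and to 8.33% at 1.5-fold. Between the clones the member calls rose from 1 to 3 at 1.5-fold (HOXB6 among them), where the share of all genes rose from 4.19% to 12.4%. Leaving out a clone, the members called in the rest ranged from 0 to 1, the 1 being HOXB5 without clone 1. The mean log2 ratio of the HOXB sum moved from -0.11 to -0.040 in TPM and to -0.21 without HOXB9, and that of the HOXC sum from -0.50 to -0.95 without HOXC6. Leaving out a clone gave -0.34 to -0.06 for the HOXA sum, -0.12 to -0.09 for HOXB, -0.71 to -0.30 for HOXC and -0.77 to -0.37 for HOXD. The members at 5 FPKM or more were 12, against 20 at 1 FPKM or more. Over all genes, those called in both clones were 38, and 287 in TPM, where more genes pass the filter. By read intervals in TPM, HOXA7 joined HOXA6 above the control in both clones, and the clone 1 interval of HOXB3 held 1. Under the median-ratio scaling that of HOXB6 did. No paired analysis was possible with 1 control library, and no pairing of the libraries is labelled. Under 20 reads, as for HOXC4, HOXC9 and HOXD10 in some libraries, counting error alone spans a wide range of ratios.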
